A study of Mus musculus with 6 samples.

Results

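Hedgehog signalling was examined in the lungs of mouse embryos at 12.5 dpc through 9 genes, namely the ligand *Shh*, the receptor *Ptch1*, the co-receptor *Boc*, the ligand-binding inhibitor *Hhip*, the membrane transducer *Smo*, the cytoplasmic inhibitor *Sufu* and the transcription factors *Gli1*, *Gli2* and *Gli3*. They were chosen by name, with earlier results of these data known, and all 9 were found among the 24402 loci of the deposited table. RNA-Seq was performed on whole lungs of C57BL/6 embryos in 2 groups of 3 libraries each. One group is labelled wild type and came from littermates, and the other was Yap-flox/flox; Shh-Cre/+, called *Yap* mutant here. The mutants were homozygous for a conditional *Yap* allele and carried Cre inserted into the *Shh* gene, so that recombination is driven where *Shh* is expressed, which in the lung is the epithelium, while the mesenchyme keeps *Yap*. The Cre insertion also disrupts the *Shh* allele that bears it, so the mutants had a single intact *Shh* allele. The effect of that allele on the genes described here and the effect of *Yap* loss cannot be told apart, since no group of Shh-Cre/+ lungs with intact *Yap* was part of the comparison.

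In Hedgehog signalling the secreted ligand binds PTCH1, which otherwise holds SMO inactive. Released SMO acts in the primary cilium to free GLI proteins from SUFU, so that GLI2 and GLI3 are no longer processed into repressors and GLI-dependent genes are transcribed. *Ptch1*, *Hhip* and *Gli1* are themselves such genes and are widely used as a readout of the pathway. In the developing lung *Shh* is made by the epithelium, most strongly at the growing tips, and the response is read mainly in the neighbouring mesenchyme, where it is required for branching and for airway smooth muscle.

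The expression level of each gene was a single FPKM value (fragments per kilobase of transcript scaled to the number of mapped fragments) for each genotype, which the authors derived from the libraries of that genotype together. No values of individual libraries were used here, so no test could be run, no replicate spread could be given, and the depth behind each value is unknown. Differences are therefore stated as the ratio of the *Yap* mutant value to the wild-type value, on a linear or a log2 scale, and a gene is called lower or higher only when the values differed by at least 1.5-fold. Of 12701 loci with a value above 0 in both genotypes and a mean of at least 1 FPKM, 3.42% were lower and 4.54% were higher by that measure, and their median log2 ratio was -0.01.

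Promoter windows are shown for some of the genes on which the comparison turns. RefSeq promoter windows of the GRCm38.p6 build were at hand for 6 of the 9 genes (*Ptch1*, *Hhip*, *Smo*, *Sufu*, *Gli2* and *Gli3*). The bases before the transcription start of *Ptch1* (chr13:63565736-63565985, minus strand) and *Hhip* (chr8:80058061-80058258, minus strand) are given because these response genes had the largest differences among the genes with a window. Those of *Gli2* (chr1:119053620-119053869, minus strand) and *Smo* (chr6:29735247-29735496, plus strand) are given because they held a searched motif. The windows of *Ptch1* and *Gli2* lie at a start inside the annotated interval of the gene. Sequences run 5′ to 3′ on the strand of the gene, and capitals mark a motif match on either strand.
Ptch1: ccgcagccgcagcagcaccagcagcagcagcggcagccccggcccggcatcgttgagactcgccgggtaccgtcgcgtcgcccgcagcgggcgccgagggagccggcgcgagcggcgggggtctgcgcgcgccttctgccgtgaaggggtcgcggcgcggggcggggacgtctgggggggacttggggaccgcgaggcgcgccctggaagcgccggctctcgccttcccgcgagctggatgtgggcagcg
Hhip: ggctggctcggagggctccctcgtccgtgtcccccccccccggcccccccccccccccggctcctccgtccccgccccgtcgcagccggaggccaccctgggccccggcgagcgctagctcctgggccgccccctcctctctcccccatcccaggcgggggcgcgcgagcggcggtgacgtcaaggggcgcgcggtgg
Gli2: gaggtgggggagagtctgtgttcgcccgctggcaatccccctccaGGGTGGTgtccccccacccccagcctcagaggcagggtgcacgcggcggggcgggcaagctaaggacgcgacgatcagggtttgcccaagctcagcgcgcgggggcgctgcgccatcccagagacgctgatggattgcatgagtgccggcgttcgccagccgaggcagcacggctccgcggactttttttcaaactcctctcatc
Smo: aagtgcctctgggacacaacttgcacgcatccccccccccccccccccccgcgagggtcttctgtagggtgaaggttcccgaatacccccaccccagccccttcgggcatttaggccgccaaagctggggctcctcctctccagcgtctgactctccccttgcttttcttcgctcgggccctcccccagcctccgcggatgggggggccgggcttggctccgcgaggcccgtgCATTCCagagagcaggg

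Motifs were searched on both strands over the full 250 bases before the start, also for *Hhip*, of which the 198 bases outside the annotated gene are printed. The GLI consensus GACCACCCA was found in 0 of the 6 windows and in 0.225% of 32851 promoter windows. The shorter core ACCACCC, which lies within the consensus, was found only in the window of *Gli2* among the 6, where it reads GGGTGGT on the gene's strand, and in 3.92% of all windows. GGAATG, the core bound by TEAD factors, the DNA-binding partners of YAP, was found only in that of *Smo*, as CATTCC, and in 12.6% of all windows. A match describes letters in the window and not binding, and nothing about a factor follows from the absence of a match.

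The ligand *Shh* and the readout genes *Ptch1*, *Hhip* and *Gli1* were lower in *Yap* mutant lungs. The other 5 of the 9 genes were within 1.5-fold of wild type. Of the 9 genes, 4 were lower (*Shh*, *Hhip*, *Ptch1* and *Gli1*) and 0 were higher, beside 3.42% and 4.54% of all loci. The median log2 ratio over the 9 genes was -0.14, and 7 of the ratios were below 0, beside 51.8% of all loci. Those 7 include *Smo*, *Gli2* and *Sufu*, which were within 1.5-fold of wild type.

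**Figure D1:**
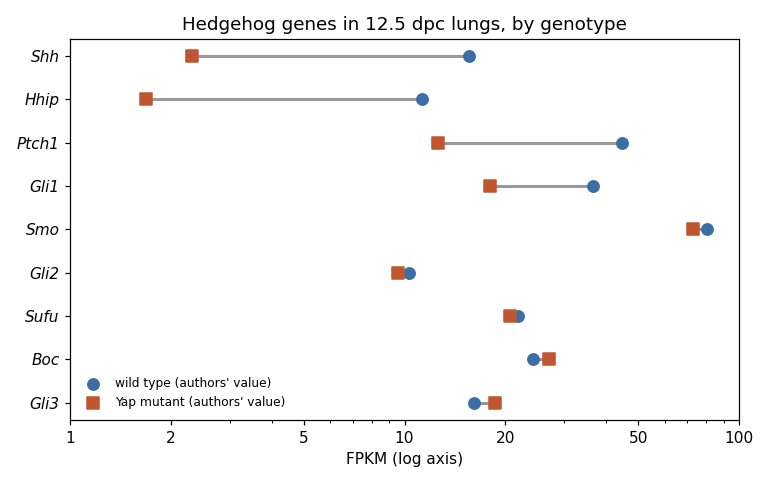
FPKM of the 9 Hedgehog genes on a log axis, with circles for the authors' wild-type value and squares for the authors' *Yap* mutant value, ordered by their ratio. *Shh*, *Hhip*, *Ptch1* and *Gli1* are widely separated, for example 15.6 against 2.31 FPKM for *Shh*, and the pairs of the other 5 genes lie close together. No error bars are drawn because each point is a single pooled value.

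*Shh* encodes the only Hedgehog ligand with a value of at least 1 FPKM in either genotype. Its level was 15.6 FPKM in wild-type lungs and 2.31 FPKM in *Yap* mutant lungs, which is 14.8% of wild type and a log2 ratio of -2.76. Among the 12701 loci, 0.110% had a ratio as low or lower. In the mm10 build the RefSeq gene lies on chromosome 5 between 28456840 and 28467101. The deposited interval runs on to 28719209 because it is shared with the lncRNA gene *9530036O11Rik*, which had the levels of 1.08 FPKM in wild type and 0.201 FPKM in mutants at a first locus and 0.0540 and 0.0399 FPKM at a second. The libraries were strand-specific, but the strand setting of the counting is not given in the sources used here, so reads of overlapping genes may not be cleanly divided.

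The other ligand genes were barely detected. *Dhh* had 0.723 FPKM in wild type and 0.620 FPKM in mutants, and *Ihh* had 0.0880 and 0.151 FPKM. Both were below the minimum mean of 1 FPKM and were given no ratio. On this per-length scale *Shh* was the most abundant of the 3 ligands in both genotypes.

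The receptor and the ligand-binding inhibitor, through which responding cells limit the signal, were lower as well. *Ptch1* (chromosome 13, 63508328 to 63573460) had 44.8 FPKM in wild type and 12.6 FPKM in mutants, a 3.56-fold lower level with a log2 ratio of -1.83. *Hhip* (chromosome 8, 79965850 to 80058060), whose product sequesters Hedgehog ligands at the cell surface, had 11.2 and 1.68 FPKM, a 6.68-fold lower level with a log2 ratio of -2.74. Of all loci, 0.331% had as low a ratio as *Ptch1* and 0.118% as low a ratio as *Hhip*. The log2 ratios of *Hhip* and *Shh* differed by less than 0.1, so that the level of *Hhip* relative to *Shh* was 0.721 in wild type and 0.729 in mutants. The level of *Ptch1* relative to *Shh* was 2.87 and 5.45, since the difference in *Ptch1* was the smaller.

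The transcription factors differed among themselves. *Gli1* (chromosome 10, 127329882 to 127341579), an activator that is itself induced by the pathway, had 36.7 FPKM in wild type and 18.0 FPKM in mutants, a 2.04-fold lower level with a log2 ratio of -1.03. *Gli2*, which supplies most of the activator form in many tissues, had 10.3 and 9.59 FPKM (log2 ratio -0.10). *Gli3*, the main source of repressor, had 16.2 and 18.7 FPKM (log2 ratio 0.21). *Gli1* thereby made up 58.1% of the summed FPKM of the 3 genes in wild type and 38.9% in mutants, while that sum was 63.1 and 46.3 FPKM. Of all loci, 1.28% had as low a ratio as *Gli1*, 26.1% as low a ratio as *Gli2* and 84.6% as low a ratio as *Gli3*.

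The components that receive and relay the signal without being strongly induced by it had similar values in both genotypes. *Smo*, the seven-pass transducer, was the most abundant of the 9 genes in both, with 80.3 FPKM in wild type and 72.8 FPKM in mutants (log2 ratio -0.14). *Sufu*, which binds GLI proteins in the cytoplasm, had 21.9 and 20.7 FPKM (log2 ratio -0.08). *Boc*, a co-receptor that presents ligand to PTCH1 and is itself repressed by the pathway in several tissues, had 24.2 and 27.0 FPKM (log2 ratio 0.16). The level of *Ptch1* relative to *Smo* was 0.558 in wild type and 0.173 in mutants. Without replicate values these small differences cannot be placed above or below the spread between libraries.

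The order of the levels differed accordingly. In wild-type lungs it was *Smo*, *Ptch1*, *Gli1*, *Boc*, *Sufu*, *Gli3*, *Shh*, *Hhip* and *Gli2*, from 80.3 to 10.3 FPKM. In *Yap* mutant lungs it was *Smo*, *Boc*, *Sufu*, *Gli3*, *Gli1*, *Ptch1*, *Gli2*, *Shh* and *Hhip*, from 72.8 to 1.68 FPKM. *Ptch1* was in place 2 in wild type and place 6 in mutants, and *Boc* was in place 4 and place 2. Which neighbours in these orders differ beyond replicate spread is not known.

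**Figure D2:**
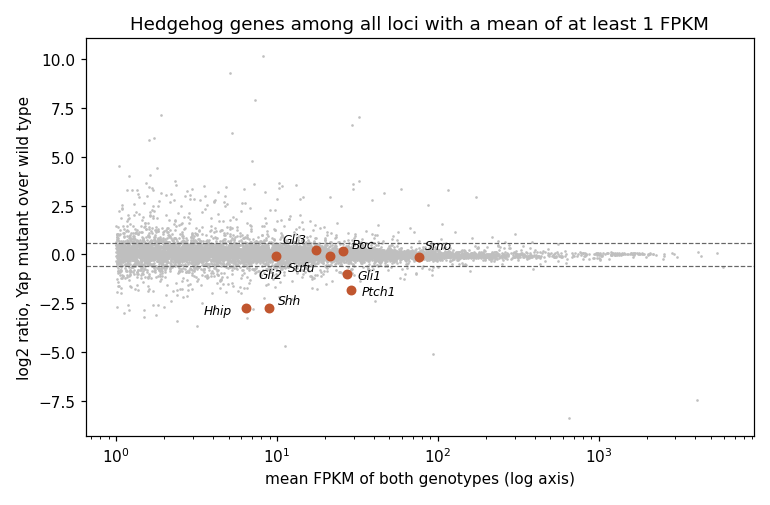
Log2 ratio of *Yap* mutant over wild-type FPKM against the mean FPKM of both genotypes (log axis) for 12701 loci in grey, with the 9 Hedgehog genes as labelled points and dashed lines at a 1.5-fold difference in either direction. *Shh*, *Hhip*, *Ptch1* and *Gli1* lie below the lower line, and the other 5 genes lie between the lines.

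Further genes for ligand release, reception, ciliary transduction and GLI regulation were described through 37 genes reported here, of which 31 had a mean of at least 1 FPKM. Of these 31, 0 were lower and 0 were higher by 1.5-fold, beside 3.42% and 4.54% of all loci. Their log2 ratios lay between -0.51 (*Scube1*, a secreted carrier of the ligand) and 0.50 (*Disp1*, which releases lipid-modified ligand from producing cells and had 5.78 and 8.17 FPKM). The median log2 ratio over the 31 genes was 0.01. The genes are a selection, chosen with earlier results of these data known, and do not cover the whole pathway.

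By role, the 4 ligand release genes measured had log2 ratios from -0.51 to 0.50, and the best expressed of them was *Scube3*, with 24.8 FPKM in wild type and 28.0 FPKM in mutants at a locus shared with *Zfp523*. The 5 co-receptor genes lay between -0.26 and 0.19. *Gas1*, which binds ligand together with PTCH1, had 42.0 and 48.0 FPKM, and *Gpc3*, a glypican that competes for ligand, had 329 and 328 FPKM. *Gpc3* is X-linked, and the sexes of the pooled embryos were unequal by their transcripts. *Xist* was 97.0 FPKM in wild type and 50.4 FPKM in mutants, and the 4 Y-linked genes measured were at 0.0163 FPKM or less in wild type, with *Kdm5d* and *Uty* at 0, and between 4.61 and 16.5 FPKM in mutants. The part of embryo sex in the results given here was not tested, and it cannot be told apart from genotype in values pooled by genotype.

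The intracellular components had values close to those of wild type. The 9 genes of ciliary transduction lay between -0.21 and 0.20, with 29.7 and 29.8 FPKM for *Adrbk1*, the kinase GRK2 that phosphorylates SMO, and 19.2 and 18.6 FPKM for *Tulp3*, which carries receptors into the cilium. The 12 GLI regulators lay between -0.12 and 0.20, with 166 and 171 FPKM for *Csnk1a1*, a casein kinase, and 145 and 153 FPKM for *Prkar1a*, the regulatory subunit of protein kinase A, both of which act on GLI processing. *Glis2*, a GLI-related zinc finger gene, had 20.7 and 19.7 FPKM, and *Zic2*, another relative, was at 0.0871 and 0.0228 FPKM.

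Genes described elsewhere as responding to Hedgehog signals differed in both directions. Of 29 such genes 26 had a mean of at least 1 FPKM, and 8 were lower and 2 were higher, beside 3.42% and 4.54% of all loci. Their median log2 ratio was -0.29. The list was drawn from general knowledge of several tissues, with earlier results of these data known. Most of its genes have other inputs as well.

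The lower genes included mesenchymal forkhead factors. *Foxl1*, a forkhead gene of the mesenchyme next to gut and lung epithelium, had 7.14 FPKM in wild type and 1.09 FPKM in mutants (log2 ratio -2.71), close to the ratios of *Shh* and *Hhip*. *Foxf1*, which is required in lung mesenchyme, had 83.5 and 41.6 FPKM, a 2.01-fold lower level, close to the 2.04-fold of *Gli1*. Other forkhead genes of the list were within 1.5-fold of wild type, with log2 ratios of -0.30 for *Foxf2*, -0.40 for *Foxc1* and -0.34 for *Foxc2*.

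Among secreted ligands of the mesenchyme, *Wnt2* had 46.5 and 27.3 FPKM (log2 ratio -0.77) and *Wnt5a* had 9.68 and 4.98 FPKM (log2 ratio -0.96). *Myocd*, the coactivator of smooth muscle genes, had 6.39 and 2.63 FPKM (log2 ratio -1.28). *Ccnd1*, which encodes cyclin D1, had 98.9 and 61.3 FPKM (log2 ratio -0.69), beside -0.28 for *Ccnd2*. *Hsd11b2*, an enzyme that inactivates glucocorticoids, and *Osr2*, a zinc finger factor, had log2 ratios of -0.70 and -0.82.

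The higher genes were *Fgf10*, the mesenchymal ligand that drives budding and is known to be restrained by SHH, and *Nr2f1*, an orphan nuclear receptor. *Fgf10* had 10.4 FPKM in wild type and 26.6 FPKM in mutants (log2 ratio 1.35), a 2.54-fold higher level. *Nr2f1* had 27.5 and 54.4 FPKM (log2 ratio 0.98). *Bmp4*, made at epithelial tips and in the mesenchyme, had 22.5 and 33.7 FPKM (log2 ratio 0.58) and was just under a 1.5-fold difference. Of the 4 best expressed genes of the list, *Ccnd1* was lower, as given above, and the others were within 1.5-fold, with 806 and 837 FPKM for *Igf2*, a growth factor, 105 and 109 FPKM for *Tbx2*, a T-box repressor, and 113 and 93.6 FPKM for *Ccnd2*, which encodes cyclin D2.

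**Figure D3:**
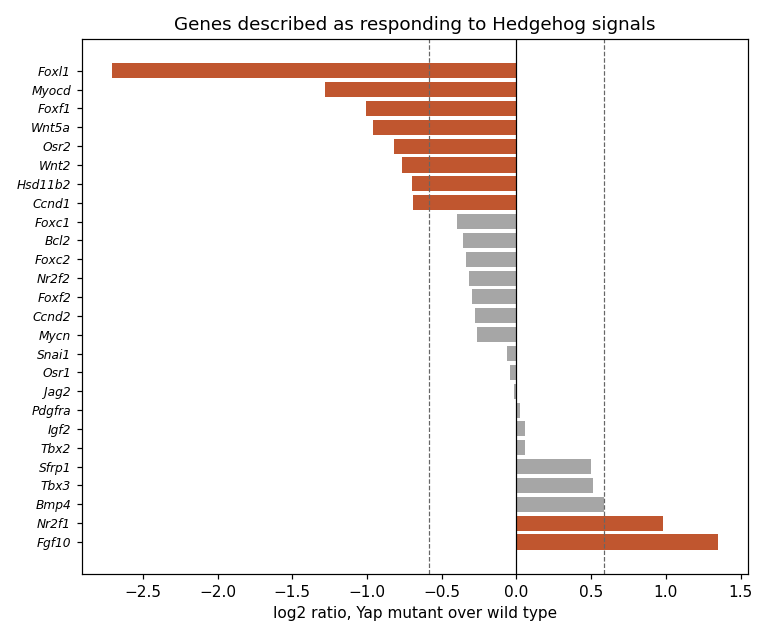
Log2 ratio of *Yap* mutant over wild-type FPKM for the 26 genes described as responding to Hedgehog signals that had a mean of at least 1 FPKM, with dashed lines at a 1.5-fold difference and coloured bars past it. The bars run from -2.71 for *Foxl1* to 1.35 for *Fgf10*, with 8 past the line on the lower side and 2 on the higher side.

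The makeup of the tissue also differed between genotypes, and in whole-lung RNA fewer cells of a type and less RNA per cell cannot be told apart. *Yap1* itself had 76.1 FPKM in wild type and 65.6 FPKM in mutants (log2 ratio -0.21), a value that covers the whole transcript and all cell types, including the mesenchyme in which *Yap* is kept. Among 27 epithelial markers, 16 were lower and 3 higher by 1.5-fold. They had a median log2 ratio of -0.60, a range from -1.87 to 1.90 and a sum of 917 FPKM in wild type and 807 FPKM in mutants. The largest value in that sum was that of *Id2*, a higher gene, with 118 FPKM in wild type and 211 FPKM in mutants. *Shh*, itself an epithelial transcript, had a lower ratio than all 27, and its log2 ratio was 2.16 below their median. Of the 27 epithelial markers, 21 had a ratio below 0, as *Shh* did, and 6 had a ratio above 0. Their part in the difference of *Shh* was not tested beyond this comparison.

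Mesenchymal markers, from the tissue in which *Ptch1*, *Gli1* and *Foxf1* are mainly expressed, were not lower by 1.5-fold. Of 18 measured, 0 passed that fold on the lower side and 3 on the higher side, around a median log2 ratio of 0.18 and a sum of 1761 and 1883 FPKM. The lowest of these ratios was -0.55, for *Tcf21*, and 0 of the 18 were as low as *Gli1*. A second locus of *Tcf21*, with a mean of 2.83 FPKM, was not used and was lower past 1.5-fold, at -0.92. Smooth muscle markers were lower in 5 of 9 and higher in 1, with a median log2 ratio of -1.06 and a sum of 315 and 168 FPKM. This list shares *Myocd* with the response genes.

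Markers of tissues adjoining the lung differed as well. All 8 cardiac muscle markers were higher, with a median log2 ratio of 3.30, and their sum was 98.8 FPKM in wild type and 674 FPKM in mutants. *Fgf10*, *Nr2f1* and *Myocd* are also expressed in the embryonic heart or the tissue next to it, and the part of heart tissue in their values was not tested. Of 8 liver markers, 4 reached a mean of 1 FPKM (8.47 and 40.6 FPKM in sum). Of these 4, *Afp*, *Apoa1* and *Ttr* were higher, and *Alb* was not, with 1.28 and 1.14 FPKM. Neural markers were lower in 4 of 7 (22.2 and 14.6 FPKM in sum). Of the markers of the notochord and floor plate, embryonic sources of *Shh* outside the lung, 3 of 6 reached a mean of 1 FPKM. All 3, namely *Nog*, *Chrd* and *Ntn1*, were lower. The list's other genes, the defining *T* and *Noto* and also *Foxj1*, were under 1 FPKM in both genotypes. *T* had 0.283 FPKM in wild type and 0.430 FPKM in mutants. How much of these tissues was present in either genotype does not follow from the list. Endothelial, mesothelial and erythroid markers had medians of 0.15, 0.32 and 0.11, with 0, 1 and 1 genes higher and none lower by 1.5-fold.

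**Figure D4:**
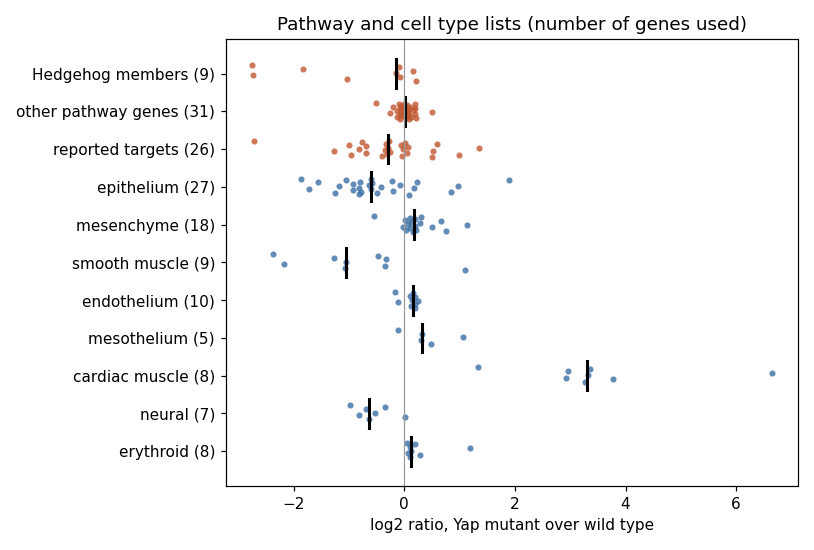
Log2 ratio of *Yap* mutant over wild-type FPKM for each gene of the Hedgehog lists and of the cell type marker lists, with a black bar at the median and the number of genes used in parentheses. The medians are -0.14 for the 9 Hedgehog genes, -0.60 for epithelium, 0.18 for mesenchyme, -1.06 for smooth muscle and 3.30 for cardiac muscle.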

How the data were processed

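RNA of 6 whole-lung libraries (3 per genotype) was prepared by the study with a strand-specific paired-end kit and sequenced on HiSeq instruments. The submitters' processing notes name TopHat and Cuffdiff, with no versions, and the mm10 build. The authors deposited 2 tables, one of all loci and one of a subset, each with 1 FPKM value per gene and genotype, pooled over libraries. The unit FPKM was inferred from the Cuffdiff layout. The tables also hold the authors' fold changes and p-values, which were not used. Depth and precision are unknown, and no test was possible.

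Ratios were computed here from the FPKM values without a pseudocount, in Python 3.11.15 with pandas 2.3.3. Loci entered with a value above 0 in both genotypes and a mean of at least 1 FPKM, and 15 loci that reached that mean but were at 0 in one genotype were left out. The computation was tested on simulated data with known differences put in. That checks the calculation only and says nothing about spread between libraries or depth. A gene with several loci was represented by the locus of highest mean. Locus starts were shifted to 1-based coordinates. Some genes of the lists are not reported here and were left out of the counts, medians and figures of those lists. The members and gene lists were chosen with earlier results of these data known. Named were all members, every gene of the Hedgehog lists past 1.5-fold, the best expressed genes of each list (2 per role in the pathway list, 4 in the list of response genes), *Fgf10* and *Yap1*, and others only to mark a range or a comparison, chosen after their values were seen. Alternatives were another filter, a pseudocount, another centre and a stricter fold. The pooled values were those of the table of all loci, and members also listed in the other table had identical values there.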

Additional observations from a re-analysis of the deposited data

How the results depend on the processing

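The count of lower Hedgehog genes stayed within 1.5 times its value of 4 under every alternative run. Centring on the median of all loci moved none of the main counts by over 1.5 times and no median by over 0.1 on the log2 scale. With a minimum mean of 5 FPKM, 5 response genes were lower in place of 8, since fewer genes entered. With a pseudocount of 1 FPKM the log2 ratio of *Shh* was -2.33 and that of *Hhip* was -2.19, so that they no longer differed by less than 0.1. Without the filter on low values, 1 of the further pathway genes was lower and 2 were higher. At a fold of 2, 3 response genes were lower and 1 was higher. The share of all loci at these other filters and folds was not computed, so the counts have no background beside them.

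Taken relative to the median of the epithelial markers, which shifts every ratio by the same amount, the log2 ratio of *Shh* was -2.16, that of *Gli1* was -0.42 and the median of the 9 genes was 0.46. Then 3 of the 9 were lower and 2 were higher (*Boc* at 0.76 and *Gli3* at 0.81), 18 of the further pathway genes were higher, and of the response genes 2 were lower and 9 were higher. The shift raises the ratio of every locus, and the share of all loci past 1.5-fold after it was not computed. These counts are therefore not read as a result about the listed genes. None of the 4 lower Hedgehog genes changed sign under any of these alternatives.

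No paired analysis was possible because each genotype has a single pooled value, and for the same reason leaving out single libraries was not run. The depth of the libraries is unknown, so low values such as that of *Hhip* in mutants have no counting interval.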

Other observations

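Genes around *Shh* and *Foxf1* were looked at after the values of both were seen, and the following are values only. Within 1000 kb of *Shh*, the 6 other genes with a mean of at least 1 FPKM had log2 ratios between -0.32 and 0.19. They include *Lmbr1*, whose intron holds a limb enhancer of *Shh*, with 3.86 FPKM in wild type and 4.39 FPKM in mutants. The first locus of the lncRNA *9530036O11Rik*, which overlaps the *Shh* interval, had a log2 ratio of -2.42 at a mean of 0.639 FPKM, below the minimum used elsewhere.

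Near *Foxf1* on chromosome 8, the neighbours differed from one another. *Fendrr*, a lncRNA transcribed away from *Foxf1*, had 14.5 FPKM in wild type and 7.79 FPKM in mutants (log2 ratio -0.89), beside the 2.01-fold lower level of *Foxf1*. *Foxl1* had the log2 ratio of -2.71 given above. *Mthfsd*, which lies between *Foxf1* and the other forkhead genes, had 11.7 FPKM in both (log2 ratio 0.00), and *Foxc2* had a log2 ratio of -0.34.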
